A study of Mus musculus with 6 samples.

Results

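The BCL2 family apoptosis regulators are 10 mouse genes, Bcl2, Bcl2l1, Mcl1, Bcl2l15, Bax, Bak1, Bcl2l11, Bad, Bmf and Bik, chosen by name and read from probe sets annotated to 1 of them alone. Of the 10, 9 were measured, by 31 probe sets, among 18193 genes on the array. Bax, a pore-forming effector, had no such probe set in the annotation used and was not analysed here. Where a gene had several probe sets, the one with the highest mean over all arrays stands for it, a choice that does not use the genotype. RNA came from whole mammary glands of virgin female FVB/N mice, 4 months old and untreated. There were 3 wild-type (WT) and 3 Cav-3 knockout (Cav-3KO) samples, each on 1 single-channel Affymetrix array. Caveolin-3 builds caveolae, small pits of the cell membrane, mainly in muscle. The labels give neither the allele nor whether each gland came from its own mouse, so p-values measure the spread between these samples, which may be technical.

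Proteins of the BCL2 family decide whether the outer mitochondrial membrane is opened, the step that releases cytochrome c and starts the caspases. BCL2, BCL-XL (Bcl2l1) and MCL1 hold the effectors BAX and BAK in check, and the BH3-only proteins BIM (Bcl2l11), BAD, BMF and BIK bind the guardians and so tip the balance towards death. In the mammary gland the family is known from the clearing of cells from the lumen of growing ducts and acini, in which BIM and BMF take part, and from the loss of milk-producing cells after weaning, which BCL-XL restrains. Bcl2l15, also called Bfk, encodes a little-studied family member with a BH3 region, described as weakly death-promoting when overproduced.

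All values are log2 values made by robust multi-array averaging (RMA), which forces nearly the same distribution on each array. Array medians were 5.77 to 5.80, and correlations over all probe sets were 0.990 to 0.995 within a genotype and 0.977 to 0.987 between genotypes. The precision is limited by the number of arrays. The probe set for Cav3 itself read 4.79, 5.02 and 4.74 in wild type and 4.76, 4.83 and 4.72 in knockout (difference −0.08 ± 0.10, SE), so it did not separate the groups, and the sources used here do not say whether it lies in the deleted part. Epithelial markers of the gland were present, with a mean over 8 luminal markers of 9.80 in wild type and 11.12 in knockout. Skeletal muscle markers varied most between arrays, with means of 5.68 to 9.45. In such whole-tissue samples, fewer cells of a type and less RNA per cell cannot be told apart.

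Bcl2l15 read 24.9-fold higher in the knockout glands, possibly a lower limit since its wild-type values lay inside the span of background readings, and Bmf 1.99-fold higher. No member passed as lower in its brightest probe set, although 3 of the 5 Bcl2 probe sets fell by 0.45 to 0.61 on the log2 scale. Bcl2l1, Mcl1, Bak1, Bcl2l11, Bad and Bik did not pass the test in any of their 22 probe sets. The test was limma's moderated test with Benjamini-Hochberg adjustment over all 45037 probe sets and a threshold of 0.05. By that rule 2 of the 9 members (22.2%) were called, both higher, against 16.2% of all genes (7.65% higher and 8.51% lower), and the 5 called probe sets made up 16.1% of the members' 31, against 12.3% of all probe sets, of which 5.74% were higher and 6.57% lower. The family's share of calls therefore lay near the background, and what stood out were single genes. At an unadjusted p under 0.05 there were 4 members higher and 1 lower, against 33.6% of all genes in either direction. The groups did not overlap for 5 members, of which 4 were higher in knockout, against 38.3% of all genes in either direction and 18.5% higher. The median difference of the 9 members was 0.22, and that of all genes −0.01.

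**Figure D1:**
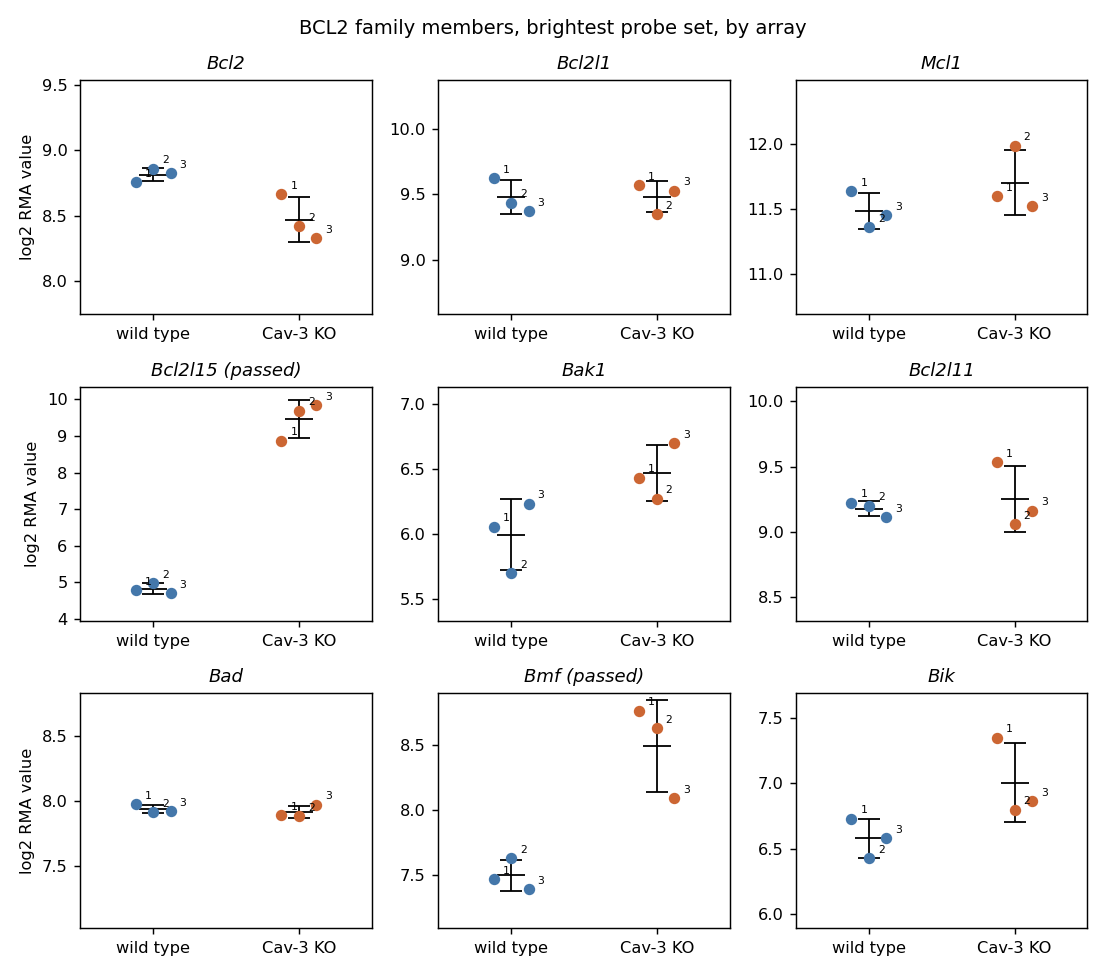
Log2 RMA values (y axis) of the brightest probe set of each of the 9 measured BCL2 family genes in the 3 wild-type (blue) and 3 Cav-3 knockout (orange) arrays; numbers are replicate numbers, and bars are the mean and SD. The Bcl2l15 axis spans a wider range than the others. Only Bcl2l15, at 4.70 to 4.99 in wild type against 8.87 to 9.84 in knockout, and Bmf passed the limma test.

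Bcl2l15 (Entrez 229672, mouse chromosome 3, 103831036 to 103854618 in GRCm38.p6, probe set 1452614_at) had log2 values of 4.79, 4.99 and 4.70 in wild-type 1 to 3 and of 8.87, 9.68 and 9.84 in knockout 1 to 3. The 3 knockout arrays lay far above the 3 wild-type arrays, and knockout 1 was the lowest of them. The log2 difference was 4.64 ± 0.24 (SE), with a 95% interval of 4.09 to 5.19, which is 17.0-fold to 36.5-fold (limma, adjusted p = 0.000319). The difference was 4.45 to 4.94 when any 1 array was left out. The wild-type level was dim. Probe sets of 5 Y-linked genes, which females lack, read between 2.20 and 4.61 on these arrays and that of Sry between 5.96 and 6.36. The wild-type Bcl2l15 values lay above the 5 and below Sry, so they fell inside this span of background readings only through the Sry set. The fold and its interval may therefore be lower limits on the difference in RNA, and the interval covers only the spread between arrays.

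The promoter of Bcl2l15 is shown with that of Bcl2, since these genes had the highest and the lowest difference among the members. Both are 300 bases from RefSeq (GRCm38.p6), 250 before and 50 after the annotated start, written 5′ to 3′ on the gene's strand, and capitals mark each CG dinucleotide. They lie at chr3:103832446-103832745 on the plus strand and chr1:106714241-106714540 on the minus strand. The Bcl2l15 start used by the promoter table lies inside the gene span given above, downstream of its first base.
Bcl2l15: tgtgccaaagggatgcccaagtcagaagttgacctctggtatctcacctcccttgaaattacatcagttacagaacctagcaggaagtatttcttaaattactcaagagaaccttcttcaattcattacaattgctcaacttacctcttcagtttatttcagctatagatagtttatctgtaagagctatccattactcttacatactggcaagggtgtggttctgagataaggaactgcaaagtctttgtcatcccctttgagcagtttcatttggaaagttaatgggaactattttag
Bcl2: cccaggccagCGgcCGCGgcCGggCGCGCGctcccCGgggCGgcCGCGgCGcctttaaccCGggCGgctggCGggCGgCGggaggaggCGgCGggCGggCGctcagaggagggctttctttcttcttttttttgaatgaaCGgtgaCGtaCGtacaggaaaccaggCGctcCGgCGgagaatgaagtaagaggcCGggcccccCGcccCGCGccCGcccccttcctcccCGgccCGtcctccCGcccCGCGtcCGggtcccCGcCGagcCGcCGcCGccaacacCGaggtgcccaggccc
The Bcl2l15 promoter held 38.3% G and C and 0 CG dinucleotides, whereas that of Bcl2 held 76.0% and 44. Among 32851 mouse promoters of this length the medians were 52.7% and 7, with 7.45% of promoters below the G and C content of Bcl2l15 and 5.43% without any CG. The letters TTCNNNGAA, the core bound by STAT factors, and GTAAACA, a core bound by FOXO factors, were searched on both strands. Neither occurred in these promoters. Over the 15 promoters listed for 9 members, Bax included, TTCNNNGAA occurred in 0 and GTAAACA in 1, at Bcl2l11, against 8.3% and 3.65% of all promoters. No promoter was listed for Bik.

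None of the nearest genes measured on chromosome 3 passed the test that Bcl2l15 passed. The 3 nearest measured genes on each side are Dclre1b, Gm15471 and Ap4b1 before it and Ptpn22, Rsbn1 and Phtf1 after it. Ap4b1, which encodes a subunit of an adaptor complex, read 7.57, 7.56 and 7.68 in wild type and 7.63, 7.63 and 7.57 in knockout. Ptpn22, which encodes a phosphatase of lymphocytes and is the next gene after Bcl2l15, read 7.49, 7.27 and 7.41 against 7.14, 7.40 and 7.31. In each of these pairs of groups the arrays overlapped. Across the 6 neighbours the log2 differences ran from −0.19 to 0.07 and their 95% intervals from −0.47 to 0.36 (limma, adjusted p = 0.373 to 0.961). With limma 0 of the 6 passed, and 0 had an unadjusted p under 0.05. Gm15471, at 2.91 to 3.36 on the 6 arrays, lay among the background readings throughout, so its value says little.

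**Figure D2:**
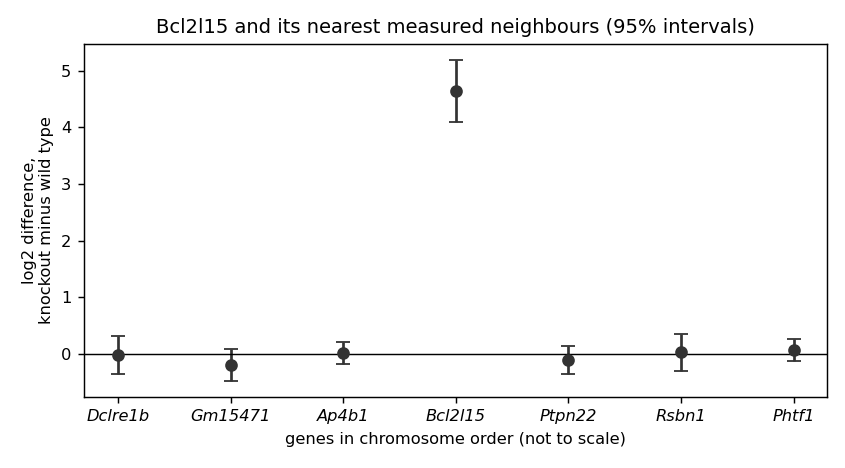
Log2 differences, knockout minus wild type (y axis, points with 95% intervals), for Bcl2l15 and the 3 nearest measured genes on each side, in chromosome order and not to scale (x axis). Bcl2l15 stands at 4.64, and the 6 neighbours lie between −0.19 and 0.07.

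The genes whose profile over the 6 arrays was most like that of Bcl2l15 were sought by the root mean square distance between log2 values, each taken relative to its wild-type mean. Since all lie among the genes with the largest differences, this is a description and not a test. Gjb2, which encodes the gap junction protein connexin 26, was nearest at a distance of 0.38, with 5.74, 6.22 and 5.64 in wild type and 10.50, 10.16 and 11.24 in knockout. Car6, a secreted carbonic anhydrase, followed at 0.46, Gjb6, the gene of connexin 30, at 0.50, Rspo1, a secreted enhancer of Wnt signalling, at 0.69 and Chrdl2, an inhibitor of bone morphogenetic proteins, at 0.86. Their wild-type means, 4.04 to 5.87, also lay inside the span of the Y-linked readings with Sry. Their differences may therefore be lower limits, and the distances describe mainly the knockout arrays. The log2 differences were 4.77 ± 0.27, 4.11 ± 0.27, 4.84 ± 0.43, 4.68 ± 0.42 and 4.63 ± 0.76 (SE). None is a BCL2 family gene.

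Bmf, the BH3-only gene known for death of cells detached from their matrix, had a brightest probe set (1454880_s_at) that read 7.47, 7.63 and 7.39 in wild type and 8.76, 8.62 and 8.09 in knockout. The groups did not overlap, and knockout 3 was the lowest knockout array. The gene rose by 0.995 ± 0.173 on the log2 scale (SE), with a 95% interval of 0.60 to 1.39 (limma, adjusted p = 0.0117). With any 1 array left out the difference was 0.86 to 1.20 and the adjusted p 0.00665 to 0.0476. The 2 other Bmf probe sets were dimmer and did not pass: 1422995_at differed by 0.44 ± 0.18 (adjusted p = 0.158) and 1458325_x_at by 0.16 ± 0.13 (adjusted p = 0.513). Their wild-type means, 4.19 and 5.11, lay within the span of the Y-linked readings, that of 1458325_x_at only through the Sry set. The s in the name of the bright set marks probes that can match several transcripts, and without sets marked s or x Bmf gave 0.44 (adjusted p = 0.160).

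Both genes rose beside the epithelial markers. Of 8 luminal markers 7 were higher and 0 lower, with a list mean of 9.59 to 10.09 in wild type and 11.02 to 11.18 in knockout, a difference of 1.33. Of 6 basal markers 5 were higher, with list means of 8.83 in wild type and 9.78 in knockout. The highest difference among the luminal markers was 2.31, for Elf5, a transcription factor of alveolar cells. Bcl2l15 thus differed by more than any of these markers. Bmf, at 0.995, differed by less than the luminal mean and by slightly more than the basal mean, 0.951. It lay within the span of the single luminal markers, 0.71 to 2.31. Of all genes 7.65% were called higher. Markers of dividing cells had a mean of 6.74 to 7.83 in wild type and 7.99 to 9.77 in knockout, with 2 of 4 higher. The part of these markers in the rise of either gene was not tested.

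**Figure D3:**
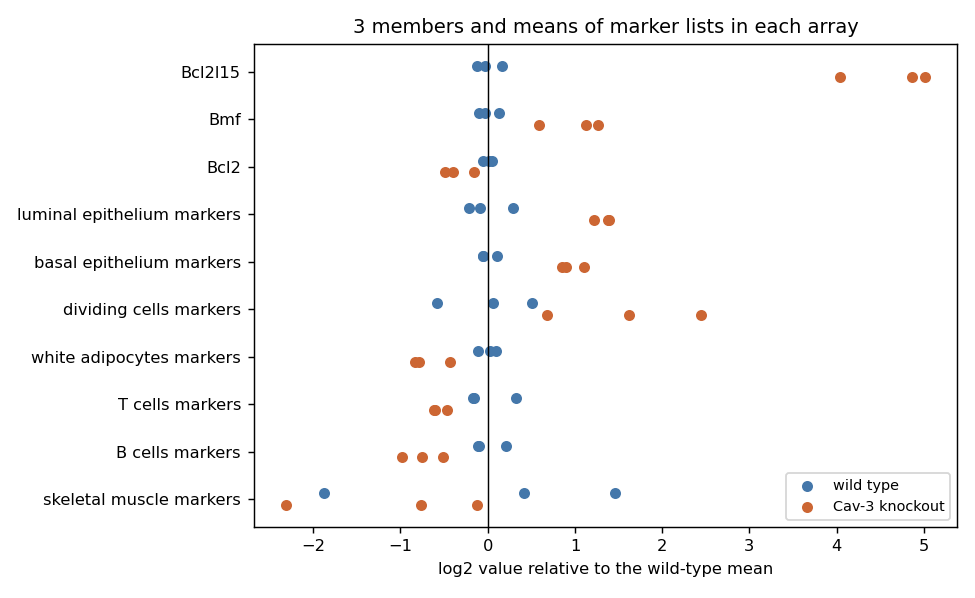
Log2 values relative to the wild-type mean (x axis) for Bcl2l15, Bmf, Bcl2 and the means of marker lists in each of the 3 wild-type (blue) and 3 knockout (orange) arrays. Luminal markers differ by 1.33, Bcl2l15 by 4.64, B cell markers by −0.75 and Bcl2 by −0.35.

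Among the pro-survival members, Bcl2, the founding gene of the family, was lower in all 5 of its probe sets. In each of them the 3 knockout arrays lay below the 3 wild-type arrays. By their brightest sets, groups did not overlap for 38.3% of all genes in either direction and 18.5% higher in knockout. This is a share over genes and not over probe sets, and the 5 sets read the same samples. The brightest (1457687_at) read 8.76, 8.86 and 8.83 in wild type and 8.66, 8.42 and 8.33 in knockout. Its difference of −0.35 ± 0.11 (SE, 95% interval −0.59 to −0.10) did not pass the limma test (adjusted p = 0.0772). Knockout 1 was the array nearest to wild type, and without it the same set passed, at −0.44 (adjusted p = 0.0370). The mean of the 5 sets also passed, at −0.43 (adjusted p = 0.0222). Of the other 4 sets 3 passed. The set 1443837_x_at read 7.94 ± 0.08 in knockout against 8.55 ± 0.06 in wild type (SD, n = 3). This fall of 0.61 passed (limma, adjusted p = 0.00607) and was called with any 1 array left out. Being marked x, the set was not in the run without sets marked s or x. The set 1440770_at fell by 0.60 (adjusted p = 0.0174). Leaving out wild-type 2 gave an adjusted p of 0.0536, wild-type 3 gave 0.0605 and knockout 3 gave 0.0662. The set 1437122_at fell by 0.45 (adjusted p = 0.0395). The call was lost when any wild-type array was dropped (adjusted p = 0.102, 0.116 and 0.0887 for arrays 1 to 3), and likewise for knockout 2 (0.0774) and knockout 3 (0.128). The dimmest, 1422938_at, differed by −0.13 (adjusted p = 0.433). Its groups were separate by a narrow margin, 6.819 in knockout 1 against 6.824 in wild-type 1.

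Bcl2 is strongly used by lymphocytes, and their markers were lower in knockout too. The mean of 4 B cell markers was 8.28 to 8.59 in wild type and 7.40 to 7.87 in knockout, with 4 of 4 lower. That of 4 T cell markers was 7.27 to 7.76 against 6.83 to 6.97, with 2 of 4 lower. White adipocyte markers had 3 of 5 lower and a difference of −0.69 in the list mean. List means also differed by −2.24 for brown adipocytes, −1.15 for neutrophils and mast cells and −1.07 for skeletal muscle. Those of endothelium and macrophages differed by −0.31 and −0.28, and that of fibroblasts by 0.03. The epithelial and dividing cell lists were higher, and 8.51% of all genes were called lower. The part of any of these markers in the Bcl2 values was not tested.

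Bcl2l1, the gene of BCL-XL, gave no detectable difference. Its brightest probe set (1420888_at) read 9.62, 9.44 and 9.37 in wild type and 9.57, 9.35 and 9.53 in knockout, and the groups overlapped throughout. The difference was 0.01 ± 0.11 (SE), with a 95% interval of −0.24 to 0.25 (limma, adjusted p = 0.983). The other 3 sets differed by −0.04 to 0.27, and none had separate groups.

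Mcl1, which encodes a short-lived guardian, was above wild type in all 6 probe sets by sign and passed the test in 0 of them, with 1 at an unadjusted p under 0.05. The brightest (1437527_x_at) read 11.64, 11.36 and 11.45 in wild type and 11.60, 11.98 and 11.52 in knockout, where knockout 2 alone exceeded the wild-type arrays. Its difference was 0.22 ± 0.14 (SE, 95% interval −0.11 to 0.54, limma, adjusted p = 0.375). Only 1448503_at had groups that did not overlap, with means of 10.23 and 10.49, and it differed by 0.26 (limma, adjusted p = 0.101). Over the 6 sets the differences were 0.04 to 0.26, each under 0.3 on the log2 scale.

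Bak1, the effector measured here, read 6.06, 5.70 and 6.23 in wild type and 6.43, 6.27 and 6.70 in knockout in its brighter probe set (1418991_at). The groups were separate by a narrow margin, between wild-type 3 and knockout 2. The difference of 0.47 ± 0.16 (SE, 95% interval 0.10 to 0.85) did not pass (limma, adjusted p = 0.103). Its second set, 1425716_s_at, was dim and differed the other way, by −0.13 (adjusted p = 0.589).

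The remaining BH3-only genes did not pass. Bik read 6.73, 6.43 and 6.58 in wild type and 7.35, 6.80 and 6.86 in knockout (1420362_a_at). Knockout 1 stood above the rest and the groups did not overlap, with a difference of 0.43 ± 0.16 (SE, 95% interval 0.06 to 0.80, limma, adjusted p = 0.127). Of the other Bik sets, 1449836_x_at differed by 0.27 (adjusted p = 0.146) and 1420363_at by −0.07 (adjusted p = 0.777).

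Bcl2l11, the gene of BIM, read 9.22, 9.20 and 9.11 in wild type and 9.53, 9.06 and 9.16 in knockout (1435448_at). Knockout 1 was the highest array, and the other knockout arrays fell among or below wild type. The difference was 0.07 ± 0.13 (SE, 95% interval −0.23 to 0.38, limma, adjusted p = 0.779), and the 5 Bcl2l11 sets ran from −0.01 to 0.11, all with overlapping groups.

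Bad, whose product is switched off by growth factor kinases, read 7.98, 7.92 and 7.92 in wild type and 7.89, 7.88 and 7.97 in knockout (1416582_a_at). The difference of −0.02 ± 0.08 (SE, 95% interval −0.21 to 0.17, limma, adjusted p = 0.897) was smaller than the spread between arrays. The other set, 1416583_at, was higher in all 3 knockout arrays, by 0.25, and did not pass (adjusted p = 0.142). The probe sets of a gene therefore differed in sign, with some values near 0, for Bad, Bak1, Bik, Bcl2l1 and Bcl2l11, while those of Bcl2, Mcl1 and Bmf shared 1 sign.

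**Figure D4:**
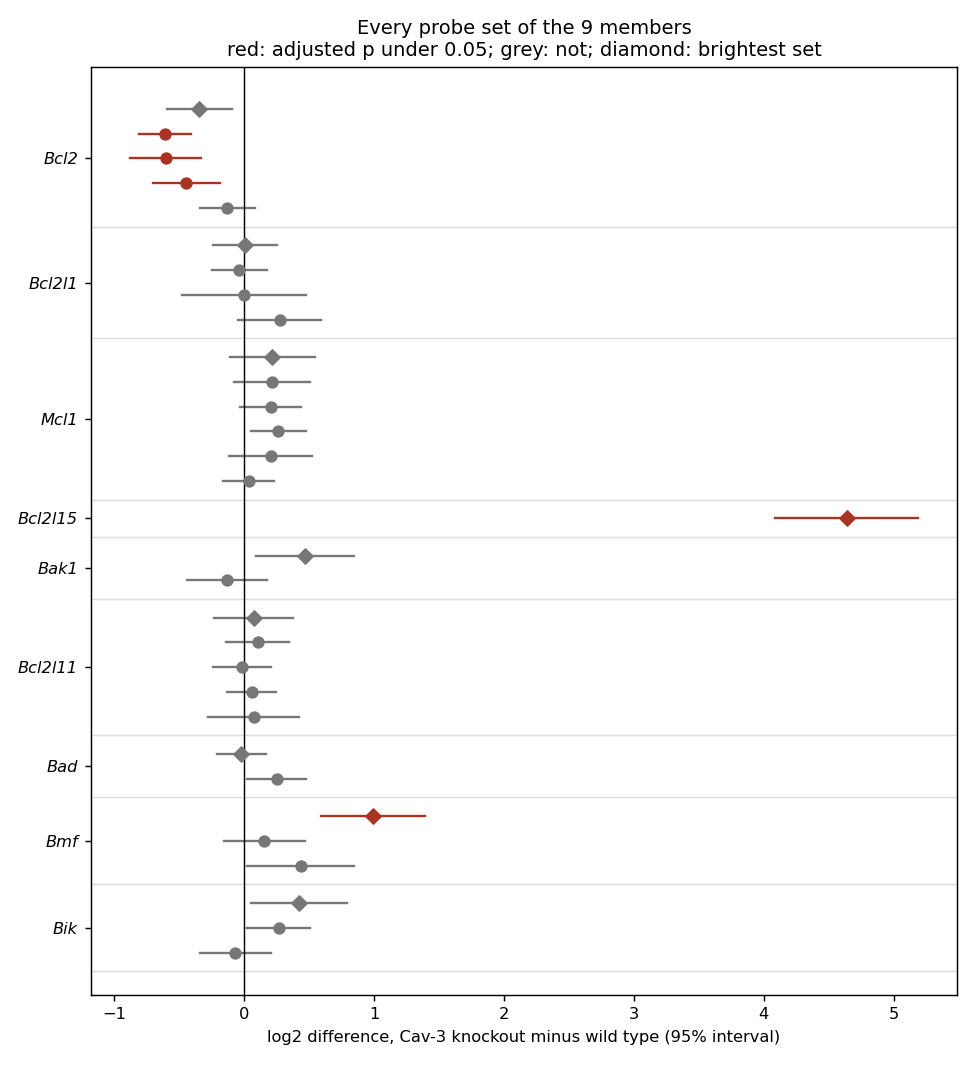
Log2 differences, knockout minus wild type (x axis, points with 95% intervals), for all 31 probe sets of the 9 members, grouped by gene (y axis) from brightest to dimmest; diamonds mark the brightest set of each gene and red the 5 sets past an adjusted p of 0.05. Bcl2l15 stands at 4.64, all 5 Bcl2 sets lie below 0, and the remaining intervals mostly span 0.

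Other genes of cell death were read in 5 lists, of which 66 of 74 genes were measured. Of the 66, 6 were higher and 4 lower (15.2% called, against 16.2% of all genes), with a median log2 difference of 0.01, so the 66 genes as a whole lay near the background. Singly they ran from 0% called in the death receptor pathway to 31.25% among the apoptosome genes. At an unadjusted p under 0.05 there were 14 higher and 14 lower, 42.4% of the 66 against 33.6% of all genes. The count of lower genes rested on few arrays: dropping wild-type 1 left 1, wild-type 3 left 0, knockout 1 left 2 and knockout 3 left 0.

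Of 12 other BCL2 family genes 0 were higher and 1 lower by limma, with 1 higher and 4 lower at an unadjusted p under 0.05. This is 8.33% called, against 16.2% of all genes. Pmaip1, the BH3-only gene of NOXA, which binds MCL1, read 5.47, 5.42 and 5.48 in wild type and 5.14, 5.17 and 5.06 in knockout. It fell by 0.34 ± 0.08 (SE, limma, adjusted p = 0.0359) and lost the call without any 1 array other than knockout 2 (adjusted p up to 0.116). All its values lay inside the span of the Y-linked readings, but only through the Sry set. Pmaip1 was not among the brighter probe sets left by a filter at the median. Bcl2l10, a relative named here for its range, read 5.41, 6.95 and 5.08 in wild type and 4.58, 4.55 and 4.53 in knockout. Its difference of −1.26 ± 0.42 did not pass (adjusted p = 0.0922).

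Downstream of the mitochondria, 2 of 16 genes of the apoptosome, the caspases and their inhibitors were higher and 3 lower. The executioner caspase gene Casp6 read 8.63, 8.41 and 8.52 in wild type and 9.09, 9.12 and 9.13 in knockout, and rose by 0.59 ± 0.09 (SE, limma, adjusted p = 0.00754). Birc3, an inhibitor of apoptosis that acts in NF-kappaB signalling, rose by 0.51 ± 0.08 (adjusted p = 0.00917). Averaged over all their probe sets, Casp6 and Birc3 lost the call, at 0.28 and 0.34 (adjusted p = 0.0579 and 0.0510). Cycs, the gene of cytochrome c, read 11.91, 12.44 and 12.39 in wild type and 11.49, 11.45 and 11.43 in knockout. It fell by 0.79 ± 0.14 (adjusted p = 0.0134), and lost the call without wild-type 3 or knockout 3 (adjusted p = 0.0526 and 0.0551). Endog, a mitochondrial nuclease, fell by 0.81 ± 0.17 (adjusted p = 0.0202). Dropping wild-type 1, 2, 3 or knockout 3 ended the call (adjusted p = 0.0559, 0.0630, 0.0668 and 0.0772 in that order). Aifm1, a mitochondrial flavoprotein named after its value was seen, fell by 0.37 ± 0.09 (adjusted p = 0.0417), and lost the call without any 1 array other than knockout 2 (adjusted p up to 0.125). The list means of white and brown adipocyte markers differed by −0.69 and −2.24, and their part in these 3 lower values was not tested. Diablo and Htra2, whose mitochondrial proteins counter the inhibitors of apoptosis, did not pass, at −0.10 and 0.19 (adjusted p = 0.480 and 0.323), and were named after their values were seen.

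In the death receptor pathway 0 of 8 genes passed by limma, with 1 higher and 1 lower at an unadjusted p under 0.05. Of 18 partners and regulators of BCL2 proteins 2 were higher and 0 lower (5 higher and 3 lower at an unadjusted p under 0.05). This is 11.1% called, against 16.2% of all genes. Fbxw7, the ubiquitin ligase subunit that marks MCL1 for destruction, read 8.11, 8.29 and 8.04 in wild type and 8.83, 9.21 and 9.07 in knockout. It rose by 0.89 ± 0.12 (SE, limma, adjusted p = 0.00544). Foxo3, a transcription factor that can act on the Bcl2l11 gene, read 10.03, 9.75 and 9.69 in wild type and 10.51, 10.44 and 10.49 in knockout, and rose by 0.66 ± 0.11 (adjusted p = 0.0102). Both were called with any 1 array left out.

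Of 12 genes known from involution, the regression of the gland after weaning, 2 were higher and 0 lower (2 higher and 3 lower at an unadjusted p under 0.05). This is 16.7% called, against 16.2% of all genes. By sign 5 lay above wild type and 7 below, with a median difference of −0.06, so the list as a whole lay near the background. Tgfb3, a growth factor induced at weaning, read 8.95, 8.57 and 8.88 in wild type and 9.59, 10.15 and 9.87 in knockout, and rose by 1.07 ± 0.16 (SE, limma, adjusted p = 0.00718). Stat3, the transcription factor that starts involution, rose by 0.55 ± 0.11 (adjusted p = 0.0164) and lost the call without wild-type 2 or knockout 3 (adjusted p = 0.0516 and 0.0534). Lif, the cytokine that activates STAT3 in the gland and named here for that role, differed by −0.36 ± 0.12 and did not pass (adjusted p = 0.0991).

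**Figure D5:**
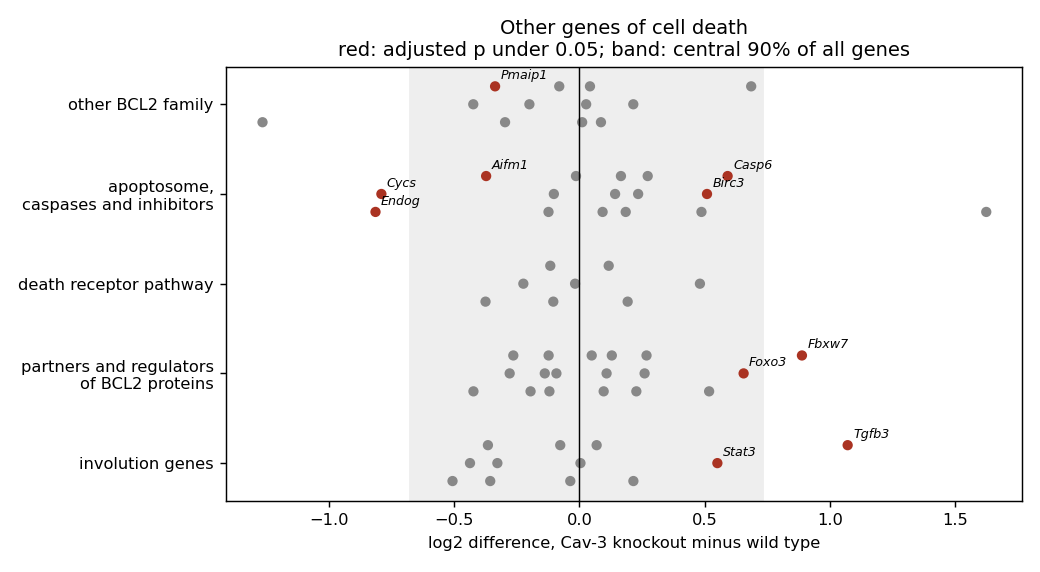
Log2 differences, knockout minus wild type (x axis), of the 66 measured genes in 5 lists of other cell death genes (y axis); red points passed an adjusted p of 0.05 and are named, and the grey band holds the central 90% of all 18193 genes. The called genes lie between −0.81 and 1.07, on both sides of 0.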

How the data were processed

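The deposited log2 values, 1 per probe set and array, are RMA output, as the submitters' processing notes state. RMA removes background, makes the arrays share 1 distribution and combines the probes of a set, so a shift shared by most transcripts would be removed. Its version and a genome build are not given in the sources used here. Of 45101 probe sets, 64 controls were left out and 45037 tested, without a filter on dim sets. A single symbol is annotated for 34945 sets, while 932 carry several (left unnamed) and 9160 have no name here. Symbols were checked through Entrez identifiers against a RefSeq table (GRCm38.p6), where 204 single-symbol sets had no match, and promoters are from RefSeq.

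Groups and replicate numbers came from sample titles. Knockout was compared with wild type by limma 3.58.1, run under R 4.3.3 (lmFit, then eBayes, two-sided, genotype as the only term, 4 residual degrees of freedom), with Benjamini-Hochberg adjustment over all tested probe sets. The fit was tested on simulated data. Summaries used pandas 2.3.3 and figures matplotlib 3.10.9. The members, gene lists and alternatives were chosen with earlier results of these data known.

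The text names all members and, per list, up to 4 genes past the threshold with separate groups and the smallest p, and also the 5 genes nearest to Bcl2l15 in profile and the 3 measured neighbours on each side. For other genes the text gives the reason. Results were recomputed with cyclic loess, a second quantile normalization, centring on array medians, removal of dim sets, array weights, a trended robust prior, each array left out, a replicate block, averaged probe sets, no sets marked s or x, a skeletal muscle covariate and other thresholds.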

Additional observations from a re-analysis of the deposited data

How the results depend on the processing

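At a threshold of 0.05, Bcl2l15, Fbxw7, Foxo3, Tgfb3, Gjb2, Car6, Gjb6 and Rspo1 were called under every alternative fit. The Bcl2 set 1443837_x_at was called under all 14 that could be run for it. These are 9 of the 20 named genes and probe sets that were called. Apart from Bcl2l15 and Bmf, the 20 were picked because they passed or lay nearest to Bcl2l15 in profile. The tally therefore describes them and is not a test. The filter on dim sets used the mean over all arrays. Bcl2l15, Car6, Gjb6 and Rspo1 were dim in wild type (means of 4.83, 4.35, 4.04 and 5.16) and were kept through their knockout arrays. Their calls under that filter are therefore no further support. Other thresholds were applied only to the counts that follow, and at 0.01 the main fit would not call Foxo3 (limma, adjusted p = 0.0102). The number of members higher was 2, and 1 without sets marked s or x (Bmf lost its call) and at a threshold of 0.01. The number lower was 0, and 1 (Bcl2) with averaged probe sets, at a threshold of 0.1 and without knockout 1, with 0 to 1 over the arrays left out in turn. The number of other cell death genes lower was 4, and 7 with array weights, 7 with averaged probe sets, 2 with a replicate block, 1 with the muscle covariate, 0 at a threshold of 0.01, 10 at 0.1 and 0 to 6 over the arrays left out. The cause of these changes was not tested. Chrdl2 gave adjusted p = 0.0521 with the other variance prior. The filter on dim sets gave no value for Pmaip1 or Gm15471, which it removed.

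Directions turned only for differences near 0 that passed nowhere. Bcl2l1 was −0.0117 after a second quantile normalization and −0.0471 to 0.0780 over the arrays left out. Bcl2l11 was −0.0678 to 0.170 over the arrays left out, and Bad was 0.11 with averaged sets. Dclre1b was 0.0016 with cyclic loess, 0.18 with averaged sets, 0.11 with the covariate and −0.12 to 0.11 over the arrays left out. Ap4b1 was −0.0202 after quantile normalization, −0.0023 with averaged sets, −0.0247 with the covariate and −0.0115 to 0.0487 over the arrays left out. Rsbn1 was −0.0914 to 0.167 over the arrays left out.

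Replicate numbers were shared by the groups. Deviations from the group means correlated between same-numbered arrays at r = −0.05, 0.19 and −0.02 for numbers 1 to 3. Between differently numbered arrays r ran from −0.19 to 0.26. With 3 arrays per group these values cannot decide whether the numbers pair the samples. With the replicate block, 3 members were higher, Bak1 among them (0.47, adjusted p = 0.0313), and 8 other cell death genes. Depth is not defined for arrays; dim sets such as Bcl2l15 in wild type and the lesser Bmf sets lie near the background readings.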
